A study of Mus musculus with 6 samples.

Results

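The 8 genes of dopamine reception and monoamine handling were followed through RNA-seq of the mouse hippocampus after methamphetamine (MA). They were found by symbol, and 8 of 8 had a row in the table of 16060 rows. These were the dopamine receptor genes Drd1, Drd5, Drd2 and Drd4, the dopamine and cAMP regulated phosphoprotein gene Ppp1r1b, the monoamine oxidase genes Maoa and Maob, and the vesicular monoamine transporter gene Slc18a2. Libraries came from 3 mice labelled Control and 3 mice labelled MA, all adult male C57BL/6 by the labels and the study's methods. Mice of the MA group received intraperitoneal MA, dissolved in saline, at 5, 10 and 15 mg/kg in weeks 1, 2 and 3, and mice of the control group received saline alone. Tissue was taken right after behavioral tests on day 22. Neither source states how long after the last injection this was. Whole hippocampus was used, so each value is an average over all cells of the piece, and fewer cells of a type and less RNA per cell cannot be told apart.

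Dopamine binds D1-like receptors (Drd1, Drd5), which raise cAMP through stimulatory G proteins, and D2-like receptors (Drd2, Drd4), which lower it through inhibitory ones. Protein kinase A then phosphorylates DARPP-32, the product of Ppp1r1b, which turns it into an inhibitor of protein phosphatase 1. Slc18a2 encodes VMAT2, which loads dopamine, noradrenaline, serotonin and histamine into vesicles, and MA empties these vesicles and makes the plasma membrane transporters run backwards. Released amines are broken down by the monoamine oxidases of the outer mitochondrial membrane. The cell bodies of dopamine, noradrenaline and serotonin neurons lie outside the hippocampus, so that axon terminals there bring transmitter but little of the mRNA of these neurons.

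The start regions of 3 of the genes are shown. Drd1 and Drd2 were chosen because both were highest in MA replicate 1. Maoa and Maob were also highest in that library, and their start regions are not printed. Slc18a2 was chosen because its start region holds the letters of the cAMP response element, named for the pathway that dopamine receptors act on. RefSeq promoter windows on GRCm38.p6, 300 bases around each start, were found for 6 of the 8 genes, and Ppp1r1b and Maob had none. Each window is printed 5′ to 3′ on the gene's strand, and at most to the start that GENCODE gives. Capitals mark GC boxes (GGGCGG or CCGCCC) and the cAMP response element TGACGTCA.
Drd1, chr13:54055706-54055908, minus strand: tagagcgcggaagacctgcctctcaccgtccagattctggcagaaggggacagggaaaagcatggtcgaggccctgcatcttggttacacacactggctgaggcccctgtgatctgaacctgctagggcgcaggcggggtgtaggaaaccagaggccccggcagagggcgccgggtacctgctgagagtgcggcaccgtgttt
Drd2, chr9:49340153-49340420, plus strand: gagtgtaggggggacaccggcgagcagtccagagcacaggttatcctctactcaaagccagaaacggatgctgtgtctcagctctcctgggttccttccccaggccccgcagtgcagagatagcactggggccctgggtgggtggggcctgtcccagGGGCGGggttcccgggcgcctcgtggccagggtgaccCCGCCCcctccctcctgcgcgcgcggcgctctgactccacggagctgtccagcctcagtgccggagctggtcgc
Slc18a2, chr19:59260628-59260895, plus strand: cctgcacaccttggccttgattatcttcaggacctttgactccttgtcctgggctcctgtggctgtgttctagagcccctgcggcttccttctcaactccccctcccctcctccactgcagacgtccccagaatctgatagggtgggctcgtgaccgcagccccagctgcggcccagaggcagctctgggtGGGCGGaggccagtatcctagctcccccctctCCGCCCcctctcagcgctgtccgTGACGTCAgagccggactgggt
The Slc18a2 window held the cAMP response element, beginning 4 bases before the RefSeq start. The 2 GC boxes of this window begin 59 and 27 bases before that start, which lies within the stretch printed. The element was found in 1.79% of all 32851 windows of this length and in no other window of these genes. GC boxes stood in 35.7% of all windows. Drd2 had 2 of them and Drd1 had none in the stretch printed, and 1 past the stretch printed. A further window of Drd1, which is not printed, held 1 as well. The TATA box letters TATAAA, searched on both strands like the others, were found in 13.6% of all windows and in none of the 7 windows of these 6 genes. Such matches are letters only and were not tested for binding.

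Levels are given as deposited, as log2 of RPKM (a read count scaled by gene length and library size) with an offset read as 1. As the values are per length, they can be set side by side between genes. Ppp1r1b was the most abundant of the 8, with a mean of 5.71 over the 6 libraries, which placed it above 90.0% of all rows. Maob followed at 3.20, Maoa at 2.73, Drd5 at 2.61, Slc18a2 at 1.35, Drd1 at 0.76, Drd2 at 0.65 and Drd4 at 0.22. The ranges over the libraries overlapped for 2 of the 7 pairs of neighbours in this order, Maoa with Drd5 and Drd1 with Drd2. In the 5 other pairs every library of the one gene lay above every library of the next. Among dopamine receptors, Drd5 was thus the leading transcript in each of the 6 libraries. Back-transformed, its level ran from 3.89 to 6.01 RPKM, against 0.322 to 1.16 for Drd1, 0.375 to 1.02 for Drd2 and 0.0410 to 0.287 for Drd4. The last 3 genes stood at or under about 1 RPKM, and the number of reads behind them is not known from the table.

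**Figure D1:**
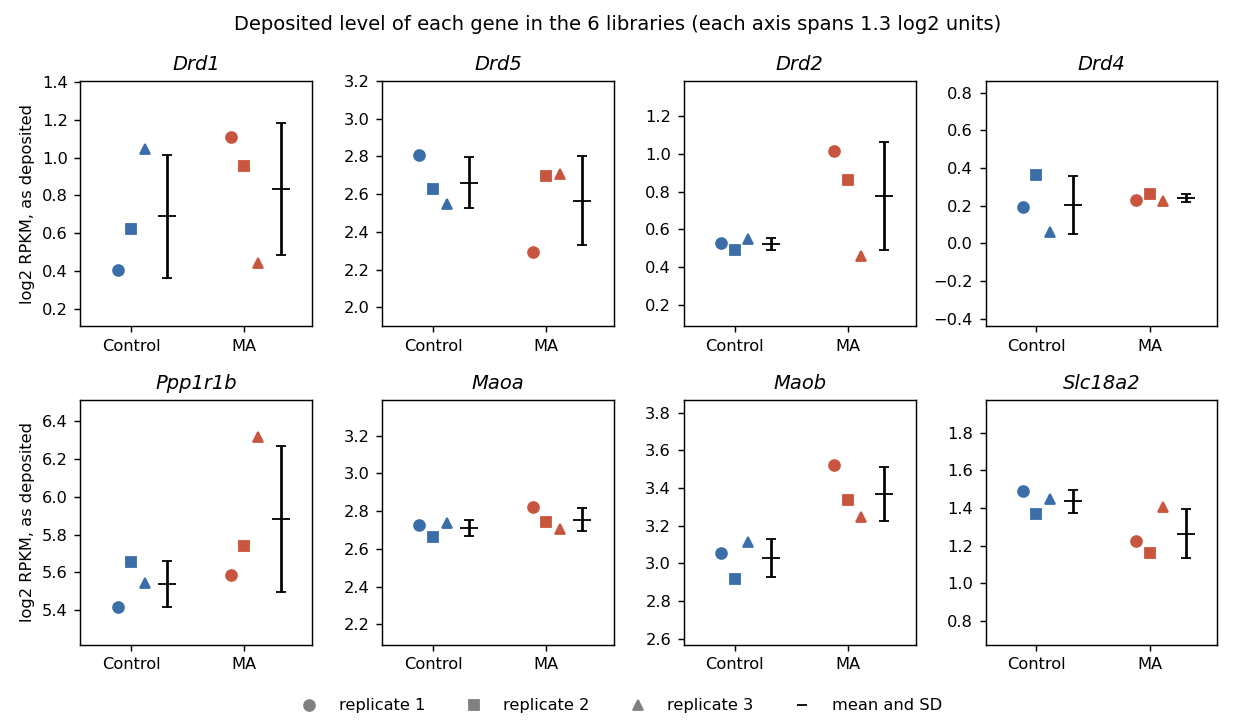
Deposited log2 RPKM (vertical axis, spanning 1.3 log2 units in every panel) of the 8 genes in the libraries labelled Control (blue) and MA (red), with a marker shape per replicate number and the mean and SD of each group in black. Maob is the one gene whose MA libraries, at 3.25 to 3.52, all lie above the control libraries, at 2.92 to 3.11.

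Drd1 (ENSMUSG00000021478, chr13:54051183-54055705 on GRCm38, minus strand) encodes the D1 receptor, which in the hippocampus is known from granule cells of the dentate gyrus. Its log2 level was 0.40, 0.62 and 1.05 in Control replicates 1, 2 and 3 and 1.11, 0.95 and 0.44 in MA replicates 1, 2 and 3. Control replicate 3 and MA replicates 1 and 2 were high, so that the groups overlapped throughout. The log2 fold change, MA minus Control, was 0.15 with a standard error of 0.23 (limma, adjusted p = 0.879). Leaving out Control replicate 1 or MA replicate 1 took it to 0.0018 or 0.0073.

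Drd2 (ENSMUSG00000032259, chr9:49340627-49408177, plus strand) encodes the D2 receptor, known from mossy cells of the hilus. It stood at 0.53, 0.49 and 0.55 in the 3 control libraries, a spread of 0.03 (SD), and at 1.02, 0.86 and 0.46 in MA replicates 1, 2 and 3. Thus 2 MA libraries lay above all controls and MA replicate 3 lay below them. Only those 2 libraries reached the minimum of 0.5 RPKM that was asked of 3 libraries, so Drd2 was not among the tested genes. In a fit without that filter its log2 fold change was 0.26 with a standard error of 0.14 (limma, adjusted p = 0.609), and without MA replicate 3 it was 0.42 with an adjusted p of 0.0825 (limma). Without MA replicate 1 it fell to 0.14. These fits without filter and with 1 library left out were not planned beforehand. Low genes are compressed by the offset of 1, and with an offset of 0.1 the value was 0.55 with a standard error of 0.33.

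Drd5 (ENSMUSG00000039358, chr5:38319367-38322518, plus strand) encodes the D5 receptor of pyramidal and granule cells and is a gene of a single exon. Its level was 2.81, 2.63 and 2.55 in controls and 2.29, 2.70 and 2.71 in the MA libraries. Only MA replicate 1 lay below the controls, and the other two lay among them. MA minus Control was -0.10 on the log2 scale (standard error 0.14; adjusted p = 0.871, limma), and without MA replicate 1 it changed sign, to 0.04. An annotated antisense gene, Gm26560, overlaps Drd5, and whether reads were counted by strand is not given in the sources used here. Drd4 (ENSMUSG00000025496, chr7:141292006-141296464, plus strand) encodes the D4 receptor. In none of the 6 libraries did it reach 0.5 RPKM. Its level was 0.19, 0.36 and 0.058 in controls and 0.23, 0.26 and 0.22 in the MA libraries, a difference not detectable here (log2 fold change 0.03, standard error 0.08, in the limma fit without filter, adjusted p = 0.932).

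Ppp1r1b (ENSMUSG00000061718, chr11:98348404-98357796, plus strand) was measured far above the receptors that act on its product. The log2 level was 5.41, 5.66 and 5.54 in controls and 5.58, 5.74 and 6.32 in the MA libraries. MA replicate 3 stood alone at the top, at 78.9 RPKM where the other 5 libraries lay between 41.6 and 52.4 RPKM. The log2 fold change was 0.34 with a standard error of 0.19 (limma, adjusted p = 0.585; exact permutation test, two-sided, p = 0.2). Without MA replicate 3 it was 0.12. The gene 1700003D09Rik overlaps Ppp1r1b on the other strand.

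Maob (ENSMUSG00000040147, chrX:16709282-16817366, minus strand) encodes the monoamine oxidase known from astrocytes and from histamine and serotonin neurons. It was 3.05, 2.92 and 3.11 in controls and 3.52, 3.34 and 3.25 in the MA libraries. Each MA library lay above each control library, and the mean level went from 7.17 ± 0.56 to 9.36 ± 1.04 RPKM (SD, 3 mice each), a ratio of 1.31. The log2 fold change was 0.34 with a standard error of 0.11 (95% interval 0.08 to 0.60). Its unadjusted p in the limma fit over all tested genes was 0.0161. This did not pass adjustment over the 13321 tested genes (limma adjusted p = 0.350; exact permutation test, two-sided, p = 0.1, the smallest that 3 against 3 can give). Dropping any 1 library gave log2 fold changes of 0.26 to 0.40. Over all alternatives the limma adjusted p was between 0.0600 and 0.785, lowest with sample quality weights.

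Maoa (ENSMUSG00000025037, chrX:16619698-16687818, plus strand), whose product prefers serotonin and noradrenaline, lies next to Maob, with 21463 bases between the ends of the genes. Its level was 2.73, 2.66 and 2.74 in controls and 2.82, 2.74 and 2.70 in the MA libraries. It was the steadiest of the 8 genes, with an SD of 0.053 over all 6 libraries, and its log2 fold change was 0.05 (95% interval -0.17 to 0.26, limma adjusted p = 0.911). The log2 difference of Maob over Maoa within a library was 0.33, 0.25 and 0.37 in controls and 0.70, 0.59 and 0.54 in the MA libraries, without overlap. That difference was taken after the values were seen and was not tested.

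Slc18a2 (ENSMUSG00000025094, chr19:59260896-59296012, plus strand) was present at 1.23 to 1.81 RPKM. Its log2 level was 1.49, 1.37 and 1.45 in controls and 1.23, 1.16 and 1.41 in the MA libraries. MA replicates 1 and 2 lay below all controls and MA replicate 3 lay among them. The log2 fold change was -0.17 with a standard error of 0.11 (95% interval -0.43 to 0.09, limma adjusted p = 0.658). The gene Gm29261 overlaps it on the other strand.

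**Figure D2:**
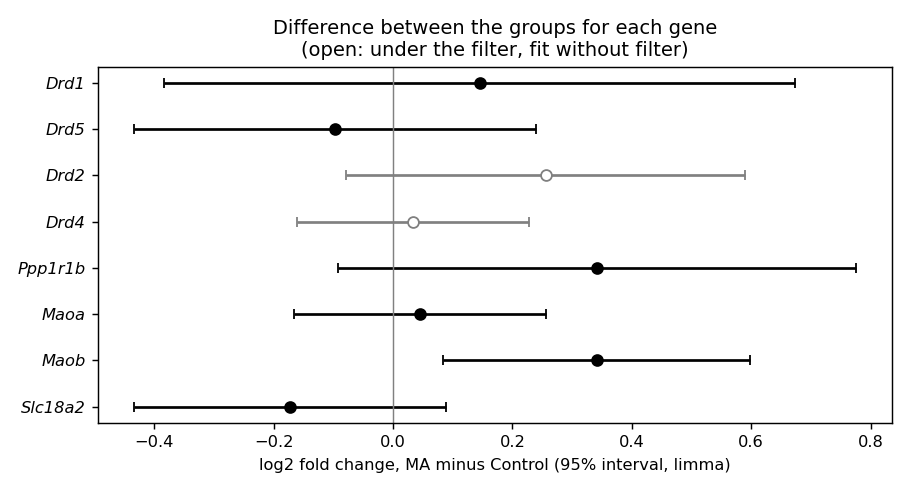
Log2 fold change of each gene, MA minus Control (horizontal axis), with its 95% interval from limma, and open circles for the 2 genes under the filter. The interval of Maob, 0.08 to 0.60, is the one that does not include 0, before adjustment over all tested genes.

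Of the 8 genes, 6 passed the filter and were tested. None of the 6 reached an adjusted p-value under 0.05 (limma), where 0.263% of all tested genes did, and 1 of 6 reached an unadjusted p-value under 0.05, where 10.4% of all tested genes did. The groups did not overlap for 1 of the 6, Maob, where they did not for 17.5% of all tested genes. The median log2 fold change of the 6 was 0.10, beside -0.010 over all tested genes. No alternative called any of these genes, with between 0 and 586 of all tested genes called under the same settings. The intervals leave room for changes of some size. For Drd1 the 95% interval ran from -0.38 to 0.67 and for Ppp1r1b from -0.09 to 0.78, so neither a like level nor a change of over 1.5-fold was shown.

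Markers of neighbouring tissue differed between the same libraries, as given here for the lists as a whole. Genes of the hippocampus itself, such as Neurod6 of pyramidal cells and C1ql2 of the dentate gyrus, were present in each library. Their summed level over 8 genes was 214 to 276 RPKM in controls and, lower in each, 194 to 209 RPKM in the MA libraries. Markers of the choroid plexus, the epithelium that makes cerebrospinal fluid, were summed at 64.7 to 420.2 RPKM in controls and 1778 to 5084 RPKM in the MA libraries. For 8 of these 8 genes the groups did not overlap, beside 17.5% of all tested genes. Of the 8, 5 were higher with an adjusted p-value under 0.05 (limma), as were 0.165% of all tested genes. The sum is led by Ttr, with a log2 fold change of 4.09 (limma adjusted p = 0.0887). Maob was higher in the same 3 libraries, while it was highest in MA replicate 1 and the choroid plexus sum was highest in MA replicate 3. The 8 astrocyte markers summed to 591 to 639 RPKM in controls and to 690, 708 and 472 RPKM in MA replicates 1, 2 and 3, with overlap. Their log2 levels were also averaged with each gene weighed alike, after centring each on its own mean over the libraries. This gave -0.05, 0.02 and 0.13 in Control replicates 1, 2 and 3. In MA replicates 1, 2 and 3 it gave 0.12, 0.09 and -0.31. The median log2 fold change of the astrocyte markers was -0.097. The part of either list in the Maob values was not tested.

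The 6 thalamic markers were high in 2 libraries, with a sum of 47.3 RPKM in MA replicate 1 and 56.8 RPKM in MA replicate 2, against 17.8 RPKM in MA replicate 3 and 19.1 to 25.8 RPKM in the control libraries. MA replicates 1 and 2 are also the libraries with the highest Drd2. Drd1 was high in these 2 and in Control replicate 3, where the thalamic sum was 25.8 RPKM. In Control replicate 1 that sum was 24.0 RPKM, and Drd1 was at its lowest, 0.40 on the log2 scale. Most of the thalamic sum in Control replicate 1 is Prkcd, at 4.01 on the log2 scale. With each thalamic marker weighed alike, the mean of the centred log2 levels was -0.35, -0.45 and -0.02 in Control replicates 1, 2 and 3. In MA replicates 1, 2 and 3 it was 0.64, 0.68 and -0.50. The share of thalamic tissue in the Drd1 and Drd2 values was not tested. The 14 markers of striatal spiny neurons, which carry much Drd1, Drd2 and Ppp1r1b, summed to 82.5 to 92.3 RPKM in controls and 74.5 to 93.9 RPKM in the MA libraries. Lrrc10b and Penk, at mean log2 levels of 5.03 and 4.71, carry most of that sum. Weighing each gene alike, the mean of the centred log2 levels was -0.13, -0.03 and 0.02 in Control replicates 1, 2 and 3. In MA replicates 1, 2 and 3 it was 0.10, 0.08 and -0.03, so that MA replicates 1 and 2 lay above all controls. For MA replicate 2 this rests on Six3, a gene at low levels that counts in this mean as much as any other. Of the 10 striatal markers tested, none passed adjustment (limma), and 2 had an unadjusted p-value under 0.05, beside 10.4% of all tested genes. Groups did not overlap for 3 of the 10, beside 17.5% of all tested genes, with 2 higher and 1 lower in the MA libraries. The higher ones were Rxrg, with a log2 fold change of 0.46 (limma adjusted p = 0.417), and Syndig1l, with 0.30 (limma adjusted p = 0.350). The lower one was Pde10a, with -0.21 (limma adjusted p = 0.675). Rxrg, Syndig1l and Pde10a were singled out after their values were seen. Among the markers at low levels, Isl1 was listed at 0 in the 3 control libraries and at no more than 0.12 in the MA libraries, Sh3rf2 was at most 0.19 and Adora2a was between 0.72 and 1.12 on the log2 scale. Adora2a was tested, and Isl1 and Sh3rf2 were under the filter. Six3, under the filter as well, was at 0.03 to 0.21 in controls and 0.48 to 1.20 in the MA libraries. Gpr6, likewise under the filter, was between 0.26 and 0.88 over all libraries. In MA replicate 3, where Ppp1r1b was highest, the striatal sum was 86.9 RPKM, inside the range of the controls. The part of striatal markers in the Drd1, Drd2 and Ppp1r1b values was not tested. Mossy cell markers, 4 genes, summed to 14.3 to 30.4 RPKM in controls and 38.4 to 66.2 RPKM in the MA libraries. Most of that sum is Calb2, which thalamic and other neurons also express. Of the 3 tested, Calb2 and Glipr1 were higher in each MA library than in each control, with log2 fold changes of 1.44 (limma adjusted p = 0.203) and 0.40 (limma adjusted p = 0.480), and Calcrl had one of 0.03 (limma adjusted p = 0.966). The part of mossy cell markers in the Drd2 values was not tested.

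**Figure D3:**
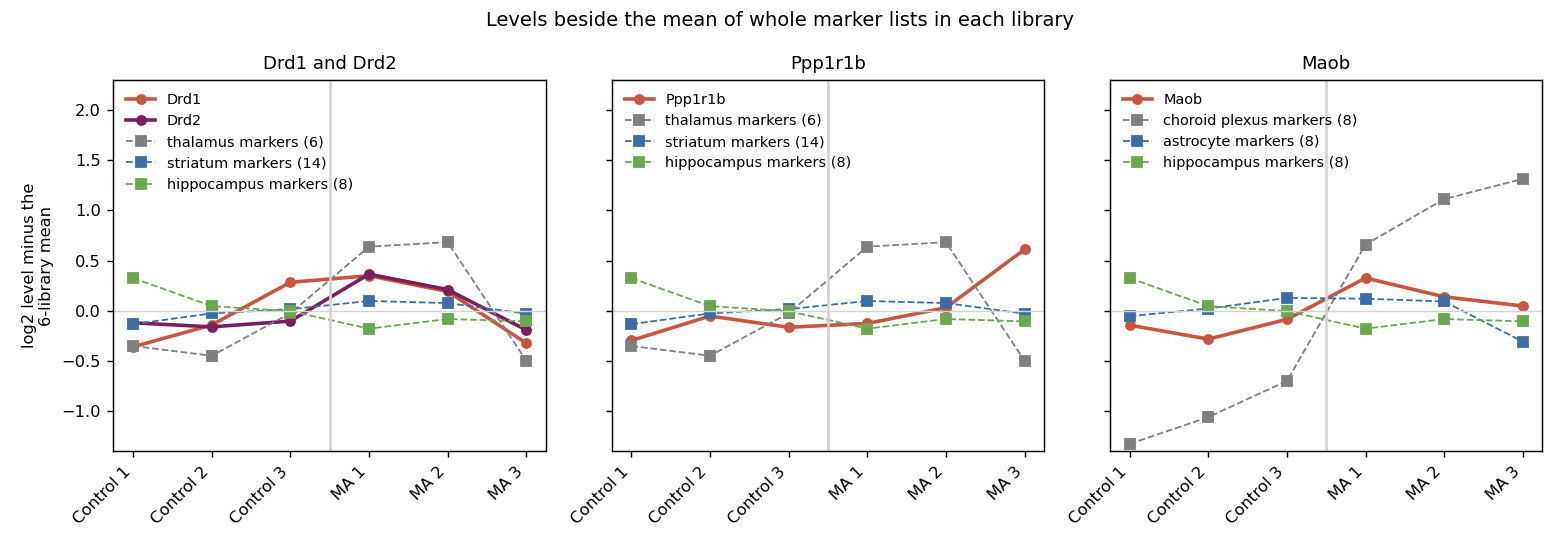
Log2 level of Drd1, Drd2, Ppp1r1b and Maob in each library minus the gene's 6-library mean (solid lines), beside the mean of the same quantity over whole marker lists (dashed lines, number of genes in brackets). Thalamic markers stand 0.64 and 0.68 above their mean in MA replicates 1 and 2, where Drd1 and Drd2 are high. In Control replicate 3, where Drd1 is also high, the thalamic markers stand at -0.02. In Control replicates 1 and 2 and MA replicate 3 they stand at -0.35, -0.45 and -0.50. Choroid plexus markers are above their mean in the 3 MA libraries, as Maob is.

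The other genes of amine synthesis, transport, breakdown and signalling were taken from lists of 80 genes in all, of which 77 had a row and 66 were tested. Sult1a1 alone, 1 of the 66, had an adjusted p-value under 0.05 (limma), and it was higher in the MA libraries, as were 0.165% of all tested genes by this rule. An unadjusted p-value under 0.05 was reached by 8 higher and 4 lower genes, or 18.2% of those tested beside 10.4% of all tested genes (4.99% higher and 5.46% lower). Groups did not overlap for 17 of the 66, or 25.8%, beside 17.5% of all. Of these, 10 were higher and 7 lower in the MA libraries, where 7.32% and 10.2% of all tested genes were. The median log2 fold change was 0.015.

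Of 14 genes of amine synthesis and its cofactor tetrahydrobiopterin, 9 were tested and none passed adjustment (limma). An unadjusted p-value under 0.05 (limma) was reached by 4 of the 9, beside 10.4% of all tested genes. Histidine decarboxylase (Hdc), which makes histamine, had log2 levels of 0.88, 0.89 and 0.65 in controls and 1.43, 1.26 and 1.22 in the MA libraries. Aromatic amino acid decarboxylase (Ddc) was 2.54, 2.13 and 2.10 in controls and 2.74, 2.55 and 2.76 in the MA libraries. In both genes the MA libraries lay above the controls, for Ddc only just. The log2 fold changes were 0.50 for Hdc (limma adjusted p = 0.233) and 0.42 for Ddc (limma adjusted p = 0.379). Pcbd1 and Qdpr, which recycle the cofactor, differed by 0.28 and -0.29 between groups (log2, limma adjusted p = 0.391 and 0.466). Spr, an enzyme of cofactor synthesis, was at 6.06 on average, next in level to Qdpr at 7.45. Apart from Ddc, the enzymes listed as markers of dopamine, noradrenaline and serotonin neurons were near the bottom of the table. Tyrosine hydroxylase (Th), the first enzyme of dopamine synthesis, was between 0.09 and 0.64 on the log2 scale, tryptophan hydroxylase Tph2 between 0.24 and 0.68, and Dbh, which makes noradrenaline, between 0.18 and 0.43. Tph1, the peripheral form, ran from 0.025 to 1.06.

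The plasma membrane transporters through which MA enters amine neurons were likewise near 0. The dopamine transporter gene Slc6a3 was at most 0.079 and the serotonin transporter gene Slc6a4 at most 0.070 on the log2 scale in any library, and Slc6a2, the noradrenaline transporter gene, is not analysed here. Thus Slc18a2, at a mean of 1.35, was far above the transporters with which it works in amine neurons. Of 9 transport genes only Slc29a4 and Sv2c passed the filter and were tested. Slc29a4, a low-affinity amine carrier, was at 4.34 on average with a log2 fold change of 0.05 (limma adjusted p = 0.918), and Sv2c, a vesicle protein, was at 1.69 with -0.13 (limma adjusted p = 0.770).

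All 10 genes of amine breakdown were tested. Sult1a1, a sulfotransferase of phenols, was 3.30, 3.53 and 3.30 in controls and 4.23, 4.49 and 4.35 in the MA libraries. Its log2 fold change was 0.98 with a standard error of 0.11 (limma adjusted p = 0.0315). Alternatives gave it 0.91 to 1.06 on the log2 scale. The call was lost without filter, with the replicate block (limma adjusted p = 0.0877) and in 5 of the 6 fits that left out 1 library, where the adjusted p reached 0.142 without Control replicate 1. The choroid plexus markers were higher in the same 3 libraries, and their part was not tested. Aldh2, the mitochondrial enzyme that takes up the aldehydes made by monoamine oxidase, was 6.29, 6.38 and 6.42 in controls and 6.65, 6.58 and 6.86 in the MA libraries. This was a log2 fold change of 0.34, the same size as that of Maob, with a limma adjusted p of 0.290. Aldh7a1 had a log2 fold change of 0.24 (limma adjusted p = 0.460). Akr1a1, the most abundant of the list at 8.07, had one of 0.03 (limma adjusted p = 0.912).

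Genes that couple dopamine receptors to cAMP were 25, of which 23 were tested, and Drd3 and Taar1, the amine receptor that MA activates, are not analysed here. None passed adjustment (limma), and 3 of the 23 were at an unadjusted p-value under 0.05, beside 10.4% of all tested genes. Adcy5, the cyclase that D1 receptors drive in the striatum, was 3.06, 3.51 and 3.47 in controls and 4.14, 4.12 and 3.53 in the MA libraries. Its log2 fold change was 0.59 (limma adjusted p = 0.370), and it was highest in MA replicates 1 and 2, as Drd2 and the thalamic markers were. Adrbk2, a receptor kinase now named Grk3, had a log2 fold change of 0.35 and Adcy2 one of -0.26, with a limma adjusted p of 0.413 for each. The G protein genes Gnas and Gnao1 were the most abundant, at 9.40 and 7.55, and differed by 0.10 and 0.04 (log2, MA minus Control). Of 22 kinases, phosphatases and relatives of DARPP-32, none passed adjustment (limma). An unadjusted p-value under 0.05 (limma) was reached by 2 of the 22, beside 10.4% of all tested genes. These were Ppp3ca and Ppp1cb. Ppp3ca, a subunit of calcineurin, which dephosphorylates DARPP-32, had a log2 fold change of -0.31. Ppp1cb, a catalytic subunit of the phosphatase that DARPP-32 inhibits, had one of -0.17. The limma adjusted p-values were 0.420 and 0.466. Ppp3ca and Ppp3r1, also a calcineurin subunit, were the most abundant of this list, at 9.11 and 8.49. In Ppp1cb, each MA library lay below each control library, while in Ppp3ca the groups overlapped.

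**Figure D4:**
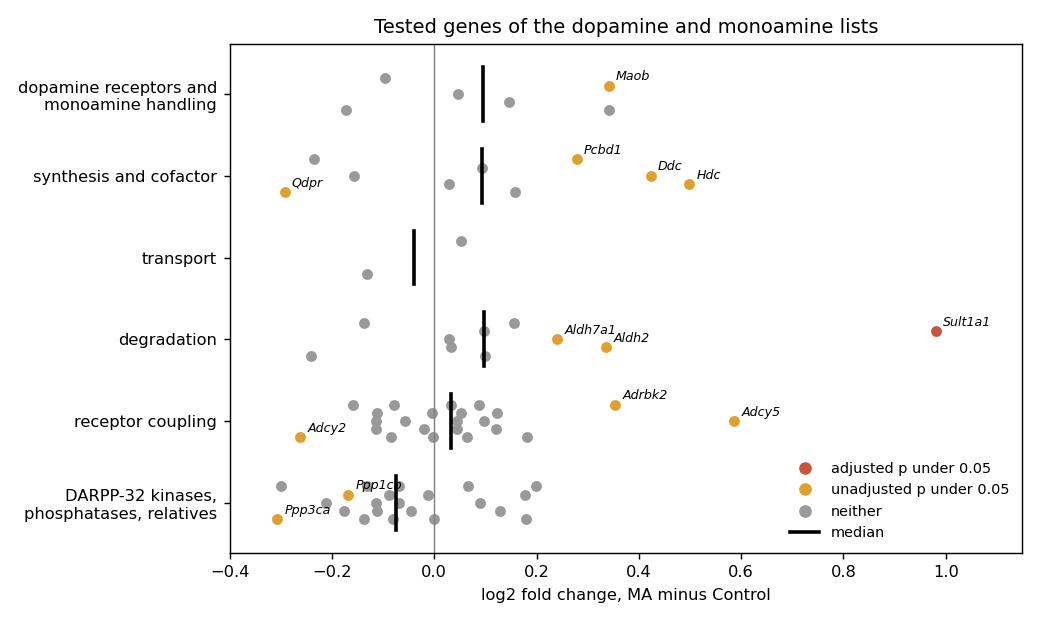
Log2 fold change, MA minus Control (horizontal axis), of each tested gene of 6 lists, with the median of each list as a black bar and genes at an unadjusted p-value under 0.05 (limma) named. Sult1a1, at 0.98, is the one gene past the adjusted threshold, and Maob, at 0.34, is the one named gene of the dopamine receptor and monoamine handling list.

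For the 3 tested genes that varied most over the libraries, the genes with the nearest profile were sought among all tested genes, as the smallest mean absolute difference over the 6 libraries after each gene was centred on its own mean. For Maob these were Srsf1, Pcbd1 and Lamp2, at 0.038, 0.039 and 0.048 on the log2 scale. Pcbd1 is the cofactor recycling gene named above. For Drd1 they were Relt, Kcnc4 and Pcdhga9, at 0.040, 0.045 and 0.046, and for Ppp1r1b they were Hfe, Six5 and Zfp787, at 0.045, 0.052 and 0.053. These are given as a description, and how near a profile may come by chance was not tested.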

How the data were processed

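The table that the authors deposited holds identifiers, symbols and 6 value columns, each matched to a mouse by name. Its name says RPKM, while the deposited values look log-transformed and were taken as log2, with the same highest value in all 6 libraries. The log transform and the normalization between libraries are not described. The study's methods name Hisat2 and featureCounts. The submitters' processing notes name Bowtie 0.12.2 with the builds mm8 and mm9, so the build is unsettled. Coordinates (GENCODE M21 on GRCm38) and promoter windows (RefSeq, GRCm38.p6) are for location only. As no counts were used, the depth behind a value is unknown.

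MA was compared with Control on these log2 values by limma 3.58.1 under R 4.3.3 (linear models with a moderated, trended variance), without covariates, over the 13321 genes with at least 0.5 RPKM in at least 3 libraries, with Benjamini-Hochberg adjustment at 0.05. Genes under the filter were read from a fit without it. Intervals of fold changes are 95% intervals from the same fit. Single genes also had exact permutation tests in scipy 1.17.1. The labels give each sample as a mouse, and p-values measure the spread between these mice. The fit was tested on simulated data first.

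The genes, lists and tests were chosen with earlier results of these data known. Named genes were all 8, the genes of each further list at an unadjusted p-value under 0.05 or among its 2 most abundant, markers near 0, and the nearest profiles. Alternatives were other scalings, filters and offsets, no trend, sample quality weights, the replicate number as a block, and leaving out each library.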

Additional observations from a re-analysis of the deposited data

How the results depend on the processing

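None of the tested dopamine receptor and monoamine handling genes was called at an adjusted p-value under 0.05 (limma) in the main fit or under any alternative. The count over all tested genes, 35, was 3 with no filter, 20 with a minimum mean of 5, 19 with no filter and an offset of 0.1 (chosen after seeing the data), and 586 with sample quality weights. It was from 0 (without Control replicate 2 or 3 or MA replicate 2) to 257 (without MA replicate 3) with 1 library left out. Adding a replicate block left 15 called genes. Deviations of same-numbered libraries correlated at -0.197, -0.242 and -0.337 for replicates 1, 2 and 3. No label says that same-numbered mice were paired. These correlations cannot settle it, since each rests on 1 library of either group. Of the genes named by the rule, the only single genes followed through the alternatives, 4 turned sign with 1 library left out, and the cause was not tested. Drd5 ran from -0.168 to 0.0394 (without MA replicate 1), Drd4 from -0.0401 (without Control replicate 3) to 0.113, Gnao1 from -0.0474 (without MA replicate 1 or 2) to 0.229, and Slc29a4 from -0.0207 (without MA replicate 3) to 0.125. For Drd2 and Drd4, the fits with 1 library left out or with a replicate block had no filter and were not planned beforehand. With sample quality weights, Adcy5, Aldh7a1, Hdc and Qdpr passed the adjusted threshold, and Qdpr also without MA replicate 3. With 3 mice a group and unknown depth, differences in genes near or under 1 RPKM are the least certain. No alternative without the table's own normalization could be made.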
